A study of Mus musculus with 13 samples.

Results

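The 55 genes described here run the mitotic cell cycle and DNA replication, and 45 of them, or 81.82%, had a row among the 11779 genes of the liver RNA-seq table. They were chosen by name as a module of cyclins, cyclin-dependent kinases, kinase inhibitors, RB and E2F proteins, replication proteins, checkpoint kinases and mitotic genes, and a gene was found when its symbol in the table equalled its name. The share of all mouse genes with a row was not computed. The table comes from a study of LL35, also named Falcor, a long non-coding RNA of mouse hepatocytes, which was depleted with antisense oligonucleotides (ASOs) to ask which genes depend on it. One group of 3 Balb/c mice received a mix of GalNAc-conjugated ASOs against LL35 (Liver LL35 ASO) and the other 3 received a GalNAc-conjugated ASO against the firefly luciferase gene (Liver Luc ASO), and the livers were taken on day 5. The study's main text gives 5 ASOs in this mix, while its supplementary list of ASOs for mice holds fewer. The labels give a dose of 150 mg/kg for each ASO, while the study's methods state doses as the total of the mix. The GalNAc sugar is taken up through a receptor of hepatocytes, but the levels below are those of unsorted liver tissue. The 7 libraries of AML12, a cultured mouse hepatocyte line, are not analysed here.

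The only measurement used is the authors' mean normalized count, a single value for each gene over all 6 livers of both groups. It holds no value for any mouse, so no level below has an error, no difference between genes was tested, and no comparison of LL35 ASO with Luc ASO is given. The reads per library are unknown. To compare levels between genes, the count was divided by the length of the merged exons in kilobases, and this value is the level per kb below. The lowest count in the table was 15.61, the median 234.7, with quartiles of 81.95 and 624.8, and the highest was 1217000 for albumin, Alb. A gene without a row is given as not listed, which does not show that its RNA was absent.

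Most hepatocytes of an adult liver rest outside the cell cycle and return to it after tissue loss. D-type cyclins with Cdk4 and Cdk6 start the way back by phosphorylating the RB family, which frees E2F factors to switch on the genes of DNA replication, and the later cyclins E, A and B carry the cell through S phase into mitosis. In resting cells a complex of a pocket protein, E2F4 and the MuvB core keeps many of these genes off, through E2F sites and through the CHR element that lies in promoters of mitotic genes.

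The members fell into 2 classes by textbook knowledge, which was not measured here. For 24 members the transcript is known to rise in proliferating cells, and for the other 31 it is present in resting cells too or follows other signals. The split does not say that transcripts of the second class, such as Ccnd1, stay level when cells divide. The split is a judgement, made with earlier results of these data known, so the difference between the classes below is a description and no test. Genes of the same complex can fall in different classes, as Rfc3 in the first and Rfc2 in the second do. Of the 24 genes of the first class 15 were listed (62.5%), and of the other 31 all but Chek2 were listed, 30 genes (96.77%). For scale, 11779 genes had a row, while the RefSeq promoter set searched below holds 27025 genes. These 2 sets were not matched, so neither class was set against the share of all genes with a row. The 10 members not listed were Cdc6, Mcm6, Ccne1, Ccna2, Ccnb1, Cdk1, E2f1, Cdc20 and Top2a from the first class, and Chek2, a DNA damage checkpoint kinase, from the second. Among them are Cdk1, the kinase of mitotic entry, its partners Ccna2 and Ccnb1, the mitotic activator Cdc20 of the anaphase-promoting complex, Top2a, the main DNA topoisomerase of dividing cells, and Cdc6, a loader of the replicative helicase.

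Promoter sequences of Cdk1, Ccnb2, Mcm5 and Anapc1 are shown as examples of a member that was not listed (Cdk1), of listed members with low counts (Ccnb2 with 20.4 and Mcm5 with 19.06) and of a member with a high count (Anapc1 with 1063). Each run is the 250 bases upstream of the RefSeq transcription start on GRCm38.p6, written 5′ to 3′ on the strand of the gene. Capitals mark exact matches on either strand to the E2F letters TTTCCCGC, TTTCGCGC, TTTGCCGC or TTTGGCGC, to the CHR letters TTTGAA, or to the NF-Y box CCAAT. The windows are chr10:69352913-69353162 on the minus strand for Cdk1, chr9:70421555-70421804 on the minus strand for Ccnb2, chr8:75109259-75109508 on the plus strand for Mcm5 and chr2:128687396-128687645 on the minus strand for Anapc1.
Cdk1: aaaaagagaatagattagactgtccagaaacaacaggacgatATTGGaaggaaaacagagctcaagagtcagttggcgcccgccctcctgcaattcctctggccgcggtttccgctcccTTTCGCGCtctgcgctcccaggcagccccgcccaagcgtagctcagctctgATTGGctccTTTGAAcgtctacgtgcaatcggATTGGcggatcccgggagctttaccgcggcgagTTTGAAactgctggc
Ccnb2: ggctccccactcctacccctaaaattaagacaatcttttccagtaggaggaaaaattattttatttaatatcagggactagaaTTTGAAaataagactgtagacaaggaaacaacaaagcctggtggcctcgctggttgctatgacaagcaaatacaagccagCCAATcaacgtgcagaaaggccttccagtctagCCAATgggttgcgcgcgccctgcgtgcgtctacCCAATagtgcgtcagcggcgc
Mcm5: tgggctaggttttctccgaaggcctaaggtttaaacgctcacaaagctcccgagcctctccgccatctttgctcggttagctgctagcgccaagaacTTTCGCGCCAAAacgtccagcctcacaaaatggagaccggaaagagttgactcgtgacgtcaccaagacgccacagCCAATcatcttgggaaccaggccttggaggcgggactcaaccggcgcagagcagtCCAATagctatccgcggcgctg
Anapc1: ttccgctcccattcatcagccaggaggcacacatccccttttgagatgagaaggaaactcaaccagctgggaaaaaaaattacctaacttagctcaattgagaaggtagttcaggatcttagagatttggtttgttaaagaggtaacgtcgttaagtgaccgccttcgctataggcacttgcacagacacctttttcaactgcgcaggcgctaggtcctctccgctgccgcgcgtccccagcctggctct

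The Cdk1 window held 1 E2F match, 2 CHR matches and 3 NF-Y boxes. The Ccnb2 window held 1 CHR match far upstream and 3 NF-Y boxes near the start, and no E2F match, and a further CHR match lay 4 bases past the start, beyond the printed run. In Mcm5 a single stretch matched the E2F letters on both strands, counted as 2 overlapping matches, beside 2 NF-Y boxes. The Anapc1 window held none of these letters. These windows are picked examples and do not show that matches go with a low count. The windows of Chek1 and Mad2l1, with counts of 16.94 and 17.09, held none of these letters. Those of Cdc27, with a count of 609, and Rbl2, with 619, held 2 NF-Y boxes and 1 CHR match.

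The median levels of the 2 classes lay apart, while their ranges overlapped. Per kb, the 15 listed genes of the proliferation class ran from 2.036 in Mad2l1 to 71.38 in Pcna, with a median of 9.677, while the 30 other listed members ran from 11.49 in Rpa2 to 489.6 in Ccnd1, with a median of 42.86. The ratio of the medians was 4.429. Pcna was the 1 gene of the proliferation class above the median of the other class, and 0 genes of the other class lay below the median of the proliferation class. Because a count in whole liver sums over all cells, fewer cells of a type and less RNA per cell cannot be told apart. The ratio was 9.731 per kb of coding sequence, 8.43 for counts not divided by length and 6.91 without the members that share 5% or more of their exonic bases with another gene. It was 1.55 among members with a count of at least 50, which 3 listed genes of the proliferation class reached, Pcna, Mcm7 and Cdc25a.

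**Figure D1:**
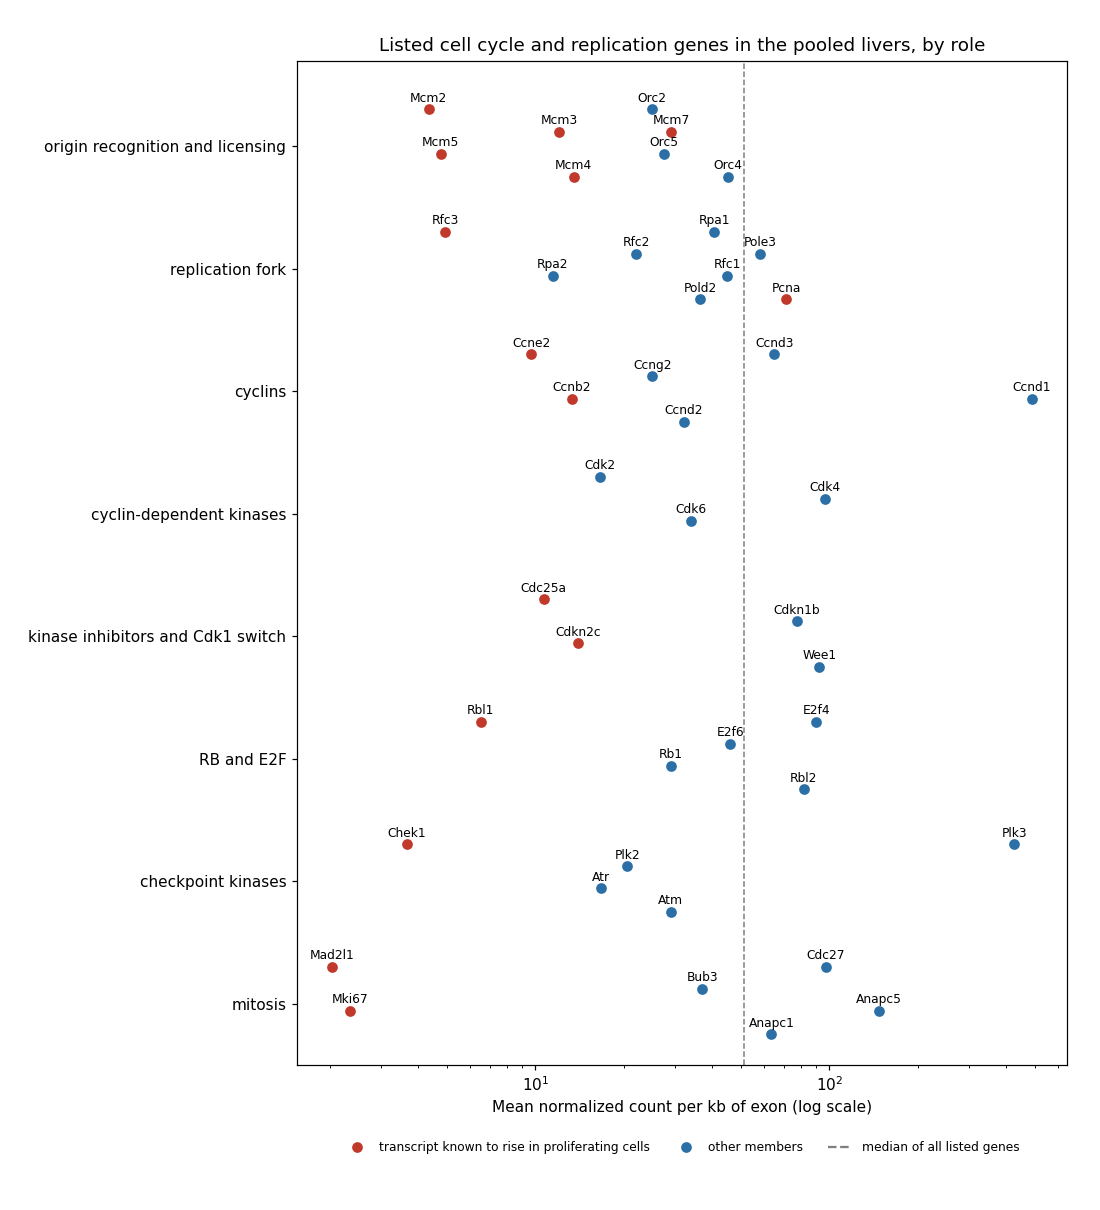
Level of each listed member, as the mean normalized count per kb of exon on a log axis, in rows by role. Each point is 1 gene, the mean of 6 livers with no error available. Red marks members whose transcript is known to rise in proliferating cells, and blue marks the others, which may rise too. The dashed line is the median of all listed genes, 51.49, and 13 members lie to its right, of which Pcna is the 1 red point.

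Against all listed genes the module stood low. The median count of the 45 listed members was 169.1, and 18 of them lay above the median of all genes. Per kb their median was 28.94, against 51.49 for all listed genes, with 13 members above that value. The median member lay above 33.31% of listed genes per kb and above 41.43% by count. The members' exons were longer than those of the table as a whole, with a median of 5578 bases against 4520. The median position was 11.25% for the proliferation class and 44.33% for the other members. By count, 14 members lay under the lower quartile of all genes, 12 of them from the proliferation class. The 4 members above the upper quartile were Ccnd1, Plk3, Anapc1 and Anapc5. Of all listed genes 15.76% had a count under 50, and so did 12 listed genes of the proliferation class and 1 other member, Rpa2.

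**Figure D2:**
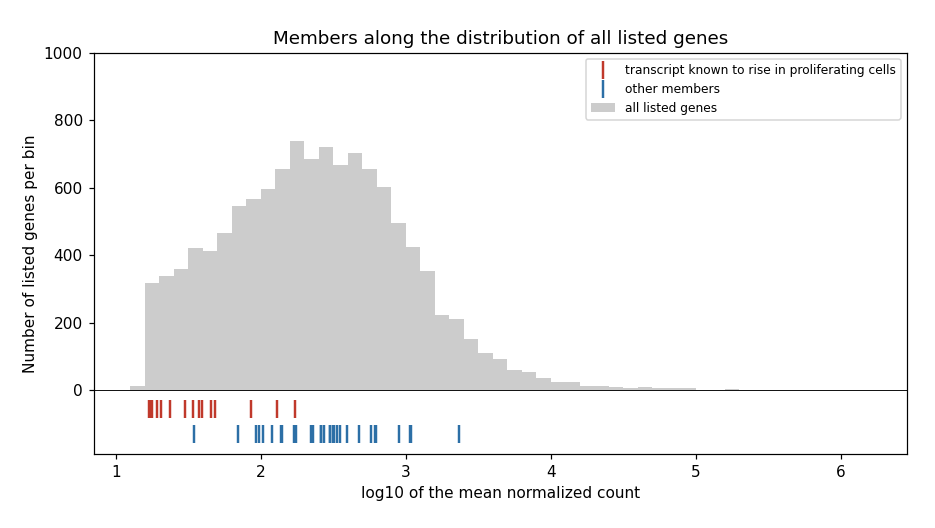
Number of listed genes by mean normalized count, in bins along the log10 of the count, with 1 tick below the axis for each listed member, red for the proliferation class and blue for the others. The table has no gene under a count of 15.61. The red ticks run from 16.94 to 171.3 with a median of 33.82, and the blue ticks from 34.38 to Ccnd1 at 2305 with a median of 285.1.

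Cyclins set the pace of each phase by activating their kinases. Cyclin D1, Ccnd1, which couples growth signals to Cdk4 and Cdk6, had a count of 2305 and a level per kb of 489.6, the highest of all listed members and above 93.07% of listed genes. Its relatives Ccnd3 and Ccnd2 had levels per kb of 64.99 and 32.05, so that Ccnd1 was 7.533 times Ccnd3 and 15.27 times Ccnd2. Per kb of coding sequence these ratios were 4.002 and 7.489. The opposite strand of Ccnd1 carries exons of LTO1 over 23.36% of its exonic bases, and whether the counting used strand is not stated. Ccng2, a cyclin linked to cell cycle arrest, had a level per kb of 25.05. The 2 other listed cyclins were Ccnb2, a partner of Cdk1 in mitosis, at 13.32 per kb and Ccne2, a partner of Cdk2 at the start of S phase, at 9.677 per kb. Their counts were 20.4 and 33.82. Ccne1, Ccna2 and Ccnb1 were not listed, so that all 3 D-type cyclins and 2 of the 5 members among cyclins E, A and B had a row.

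Among the kinases that cyclins activate, Cdk4 had a count of 314 and a level per kb of 96.64. Cdk6 had the larger count, 472.1, but on longer exons, and a level per kb of 33.75. The order of these 2 genes turned with the length used, since Cdk4 was 2.864 times Cdk6 per kb of exon and 0.7156 times Cdk6 per kb of coding sequence. Of the exonic bases of Cdk4, 19.73% also lie in Tspan31 on the opposite strand. Cdk2, which drives S phase, had a count of 103.6 and 16.66 per kb. Cdk1, the kinase of mitotic entry, was the 1 member of this group not listed.

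The 4 members that restrain these kinases or release them, Wee1, Cdc25a, Cdkn1b and Cdkn2c, were listed. Wee1, which phosphorylates and holds back Cdk1, had a level per kb of 92.64, and its opponent Cdc25a, a phosphatase that removes inhibitory phosphates from the kinases, had 10.68. The ratio of Wee1 to Cdc25a was 8.675 per kb of exon, 2.941 per kb of coding sequence and 4.06 per kb of the longest transcript. Cdkn1b, which encodes the inhibitor p27, had 77.55 per kb and a count of 353. Cdkn2c, an inhibitor of Cdk4 and Cdk6, had 14.01 per kb and a count of 37.63. Of the wider list of 8 kinase inhibitors 5 were listed. Cdkn1a, the p53 target p21 and no member here, had 65.31 per kb, so that Cdkn1b was 1.187 times Cdkn1a, a ratio that turned to 0.6952 per kb of the longest transcript. The remaining listed inhibitors, Cdkn1c and Cdkn2d, had 15.7 and 11.9 per kb, and Cdkn2a, Cdkn2b and Cdkn3 were not listed.

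In the RB and E2F group, transcripts of E2f4 and Rbl2 had the highest levels per kb of exon, while E2f6 had the highest per kb of coding sequence. Rbl2, which encodes the pocket protein p130 of quiescent cells, had a count of 619 and 81.91 per kb. Rb1 had 28.93 per kb, and Rbl1, the pocket protein p107 of cycling cells, had 6.516. Rbl2 was thus 2.831 times Rb1 and 12.57 times Rbl1, and both ratios stayed above 1 per kb of coding sequence, at 2.887 and 14.85. Exons of neighbouring genes on the opposite strand share 20.97% of the exonic bases of Rbl2 and 14.9% of those of Rb1. E2f4, the repressive partner of p130, had 90.24 per kb and E2f6, a repressor that acts without pocket proteins, 46.01. The E2f4 level was 1.961 times that of E2f6 per kb of exon but 0.5634 times per kb of coding sequence. E2f1, the activator of S phase genes, was not listed.

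The wider lists on the same switch gave further values. All 8 genes of the MuvB core and pocket proteins were listed, with levels per kb from 4.696 in Lin9 to 106.7 in the histone chaperone gene Rbbp4. Lin54 was listed with a count of 156.6, and no exon length was found for it. Of the 10 E2F and DP factors 8 were listed, E2f1 and E2f2 being the exceptions. Their levels per kb ran from 1.85 in E2f7 to 90.24 in E2f4, with E2f3 at 18.29 and the partners Tfdp1 and Tfdp2 at 50.11 and 21.59. Of Mybl2 and Foxm1, which encode B-MYB and FOXM1, activators of mitotic promoters in cycling cells, and Mybl1, which encodes the related A-MYB, 0 of 3 genes were listed.

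Origins of replication are marked by the origin recognition complex, onto which Cdc6 loads the ring-shaped MCM helicase. The members of the complex had levels per kb of 45.13 in Orc4, 27.42 in Orc5 and 24.94 in Orc2. Orc2 shares 29.82% of its exonic bases with Nif3l1 on the opposite strand, the largest share among the members. Of the other subunits, Orc3 had 56.8 and Orc6 12.78 per kb, and Orc1, the subunit that cycles in dividing cells, was not listed. The highest listed subunit was 4.445 times the lowest.

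The MCM subunits, which form a ring with 1 copy of each, were uneven. Mcm7 had a count of 128.6 and 29.05 per kb. Mcm4 and Mcm3 followed with 13.51 and 12.07 per kb, then Mcm5 with 4.774 and Mcm2 with 4.336, and Mcm6 was not listed. Mcm7 was 6.7 times Mcm2 per kb of exon and 5.36 times per kb of coding sequence. The order of the lowest 2 turned with the length used, since Mcm5 had 8.656 and Mcm2 11.12 per kb of coding sequence. Their counts were 19.06 and 30.16. Mcm7 also holds the microRNA genes Mir25 and Mir93 and overlaps neighbours, so that 12.58% of its exonic bases are shared on either strand and 3.89% on the same strand. In the list of helicase loading and activation factors 8 of 14 genes were listed, from 1.805 per kb in Dbf4, the activator of the Cdc7 kinase, to 91.98 in Mcmbp, which binds MCM subunits.

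At the fork, the sliding clamp Pcna had a count of 171.3 and 71.38 per kb, the highest among the replication members per kb of exon. By count Orc4, Rfc1 and Rpa1 were higher, and per kb of coding sequence Pole3 with 272.9 and Orc4 with 259.1 stood above Pcna with 218.8. The clamp is loaded by replication factor C, whose large subunit Rfc1 had 45.02 per kb, followed by Rfc2 with 22.06, Rfc5, no member here, with 7.997 and Rfc3 with 4.938. Rfc4 was not listed, and Rfc1 was 9.118 times Rfc3 per kb of exon and 4.727 times per kb of coding sequence. Of replication protein A, which coats single-stranded DNA, Rpa1 had 40.69 per kb and Rpa2 11.49, a ratio of 3.543 that was 2.358 per kb of the longest transcript, while Rpa3, which is no member, had 35.94. These trimer subunits thus differed less than the subunits of the MCM ring and of replication factor C.

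The polymerase members were accessory subunits, and their levels stood above those of the catalytic ones. Pole3, a histone-fold subunit of polymerase epsilon that also belongs to a chromatin remodelling complex, had 58.19 per kb, and Pold2, an accessory subunit of polymerase delta, had 36.47. The catalytic subunits Pole and Pold1, no members, had 3.29 and 7.282 per kb, so that Pole3 was 17.69 times Pole and Pold2 was 5.008 times Pold1. Both ratios kept their direction per kb of coding sequence, at 50.91 and 4.605. Pole4, the histone-fold partner of Pole3, had 211.6 per kb, 64.34 times Pole per kb of exon and 277.5 times per kb of coding sequence, and Pole2 was the 1 of 12 polymerase genes not listed. All 7 genes of the lagging strand list were listed, from 5.819 per kb in the DNA ligase Lig1 to 71.38 in Pcna.

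**Figure D3:**
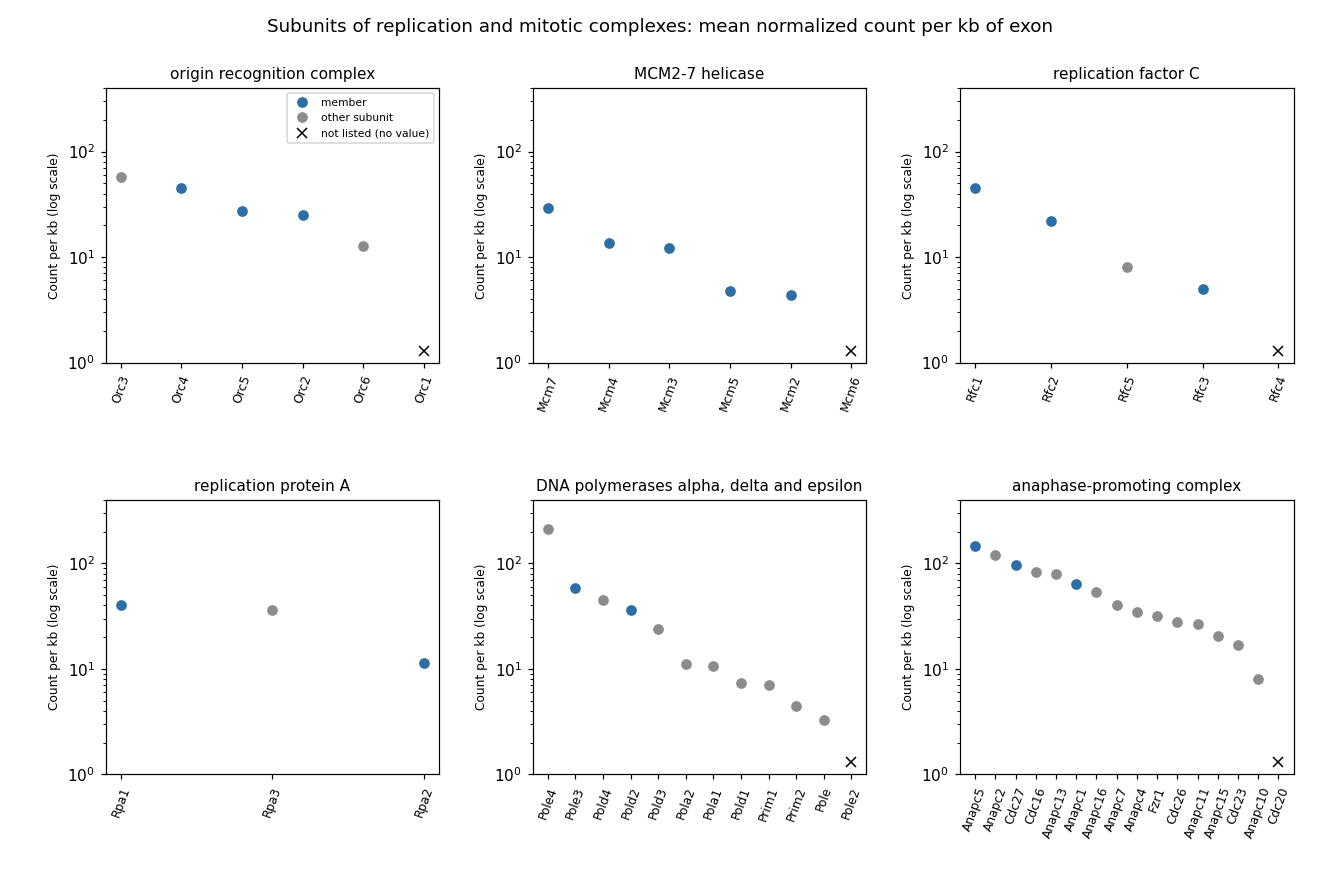
Level per kb of exon, on a log axis, of the genes of 6 lists of complex subunits, sorted from high to low. Blue points are members of the module and grey points are other genes. Crosses, placed at the foot of each panel without a value, are genes not listed. The polymerase panel joins polymerases alpha, delta and epsilon, and the anaphase-promoting panel includes the activators Cdc20 and Fzr1. Each point is 1 gene averaged over 6 livers. The spread from lowest to highest listed subunit is 3.543 in replication protein A and 64.34 in the polymerases.

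The checkpoint kinases watch over damaged DNA and stalled forks. Plk3, a polo-like kinase that responds to stress, had a count of 1080 and 426.7 per kb, above 92% of listed genes. Its relative Plk2 had 20.55 per kb, and Plk3 was 20.77 times Plk2 per kb of exon and 12.32 times per kb of coding sequence. Atm, the kinase that senses double-strand breaks, had 28.94 per kb. Atr, which senses stalled forks, had 16.72 per kb of merged exon and 48.77 per kb of its longest transcript. Chek1, the kinase that Atr activates, had a count of 16.94 and 3.654 per kb, under which only 2.127% of listed genes lay. Atm was 7.919 times Chek1 per kb of exon and 2.742 times per kb of coding sequence, and Chek2, the kinase that Atm activates, was not listed.

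In mitosis, the anaphase-promoting complex marks cyclin B and securin for destruction and also acts outside dividing cells. Its members had counts of 1063 in Anapc1, 902.1 in Anapc5 and 609 in Cdc27, and 63.6, 147.6 and 97.47 per kb. Of the 16 genes of the complex and its activators 15 were listed, from 8.072 per kb in Anapc10 to 147.6 in Anapc5, with a median of 40.7, below the median of 51.49 of all listed genes. The exception was Cdc20, the activator used in mitosis, while Fzr1, the activator used in G1 and in resting cells, had 32 per kb. Per kb of coding sequence Anapc10 was again the lowest of the listed genes, with 70.35. The highest was then Anapc13 with 849.2, above Anapc5 with 406.3. Bub3, a spindle checkpoint protein, had a count of 259.7 and 37.07 per kb. Its partner in the checkpoint Mad2l1 had a count of 17.09 and 2.036 per kb, the lowest of all listed members per kb of exon. By count Chek1 was lower, and per kb of coding sequence Mad2l1 had 27.78 and Mki67 2.469. Bub3 was 18.21 times Mad2l1 per kb of exon and 9.56 times per kb of coding sequence.

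Mki67, the marker of dividing cells used in pathology, had a count of 23.53 and 2.339 per kb. On its 10061 bases of exon it stood above 0.7317% of listed genes per kb, and by count above 4.797%. Anapc5 was 63.12 times as high per kb of exon, or 164.6 times per kb of coding sequence. Of 9 spindle checkpoint genes 4 were listed, namely Bub3, Mad2l1, Mad1l1 with 76.05 per kb and Zw10 with 61.84 per kb. Bub1, Bub1b, Ttk, Knl1 and Zwilch were not listed. Of 21 mitotic kinases and their partners 4 were listed, the smallest share of any cell cycle or replication list with a listed gene. These were the centromere histone Cenpa at 9.212 per kb, the chromosomal passenger Incenp at 6.375, the phosphatase Cdc25b at 5.862 and Ccnb2. Aurka, Aurkb, Plk1 and Birc5 were among the 17 without a row.

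**Figure D4:**
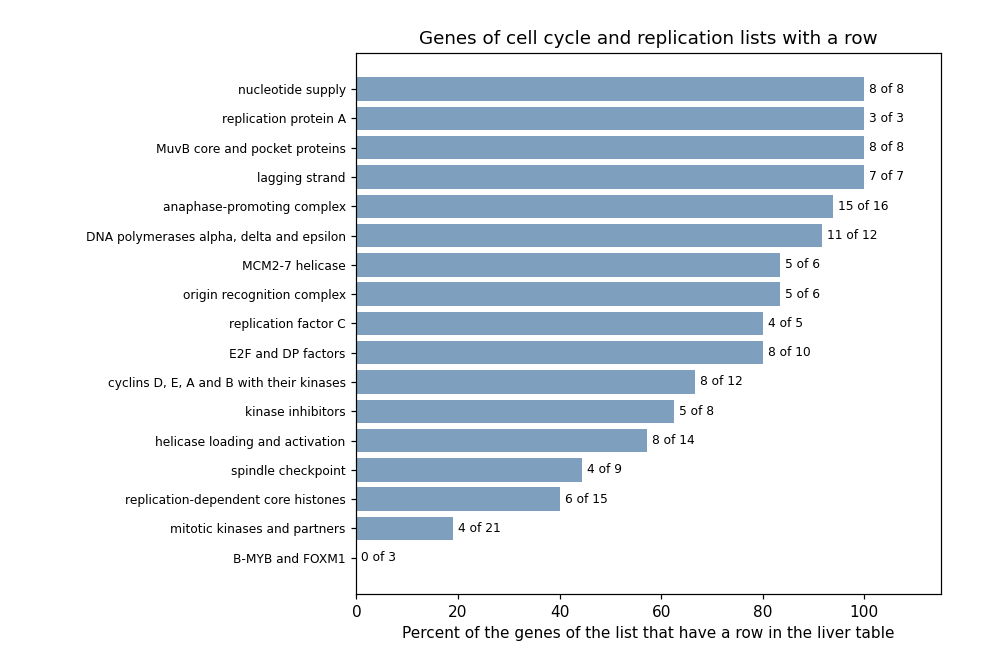
Percent of the genes of each cell cycle and replication list that have a row in the liver table, with the counts beside each bar. The lists of nucleotide supply, replication protein A, MuvB core and pocket proteins and lagging strand are complete, while 4 of 21 mitotic kinases and partners and 0 of 3 genes of the list named for B-MYB and FOXM1, which also holds Mybl1, have a row. Symbols were matched exactly, so Hist1h4d, listed as H4c4, is not counted. The share of all mouse genes with a row was not computed.

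Over these lists 116 genes were no members, and 72 of them, or 62.07%, were listed. The 8 genes of nucleotide supply were all listed, with levels per kb from 7.55 in Rrm2b, a ribonucleotide reductase subunit used outside S phase, to 57.87 in the thymidine kinase Tk1. Rrm2, the subunit made in S phase, had 16.06 per kb. Of 15 replication-dependent core histone genes 6 were listed under the exact symbol searched, and Hist1h4d had a row under its newer symbol, H4c4. The 6 ran from 4 per kb in H2bc6 to 441.2 in H4c8. Histone genes are near-identical copies and their counts may be split between them, so these values are uncertain.

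The promoter windows of 46 members were searched for the letters given above, from 250 bases before the RefSeq start to 50 bases after it. E2F letters were found in 9 of 21 windows of the proliferation class (42.9%) and in 2 of 25 of the other members (8%), while 2.32% of the 27025 genes in the promoter table had a match. The split was not blind to such control, since E2F factors are known to switch on genes of DNA replication. The shares by class are therefore a description and no test. The matches of the proliferation class lay in Cdc25a, Cdc6, Cdk1, Mcm3, Mcm5, Mcm6, Mcm7, Rbl1 and Rfc3, and those of the other class in Cdk2 and Chek2. CHR letters were found in 6 of 21 windows of the proliferation class (28.6%) and in 2 of 25 others (8%), against 18.1% of all genes.

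An NF-Y box was found in 14 of 21 windows of the proliferation class (66.7%), in 12 of 25 of the other members (48%) and in 37.9% of all genes. A CHR match together with an NF-Y box was found in 6 windows of the proliferation class, those of Cdk1, Ccnb2, Top2a, Mki67, Cdc20 and Mcm2, and in 1 of the others, Bub3. These are 28.6% and 4% of the windows, against 7.12% of all genes. When any promoter of a gene counted, the other members held CHR with an NF-Y box in 2 of 25 genes (8%) and CHR in 3 (12%), and the proliferation class stayed at 6 of 21 for both. Of the 9 members that were not listed and had a window, 4 held an E2F match (44.4%) and 3 held a CHR match (33.3%). Of the 37 listed members with a window, 7 (18.9%) and 5 (13.5%) did, against 2.32% and 18.1% of all genes. All members not listed but Chek2 are of the proliferation class, so listing and class cannot be told apart here. The window of Pcna, the highest gene of the proliferation class, held 1 NF-Y box and neither of the other motifs, and those of Plk3, Cdk4, Cdk6 and Ccnd3 held none. Windows of Chek1, Mad2l1 and Cdkn2c, low genes of the proliferation class, held none either. Among other members with high counts, Anapc5, Cdc27 and Cdkn1b held NF-Y boxes and Rbl2 held a CHR match. A match shows that the letters are there and not that a factor binds, and the search was added after the levels were seen.

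**Figure D5:**
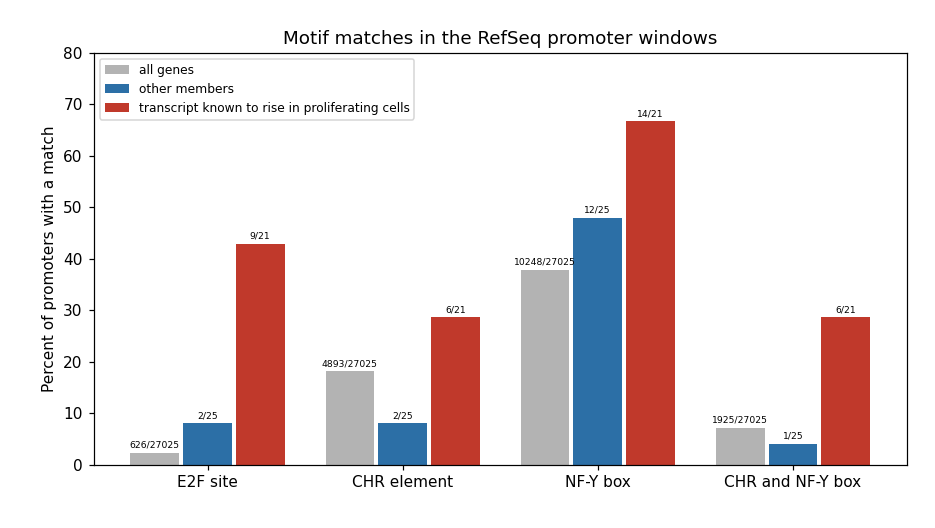
Percent of promoter windows that hold each motif on either strand, for all genes in grey, the other members in blue and the proliferation class in red, with the number of windows above each bar. The red bar is 42.9% for the E2F letters against 2.32% for all genes, and 28.6% for CHR and NF-Y box together against 7.12%. The classes were set by textbook knowledge that is not independent of E2F control, so these differences are no test.

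The tissue behind these levels was checked against marker lists. All 8 hepatocyte markers were listed, led by Alb, with a median count of 56790. All 8 markers each of Kupffer cells, sinusoidal endothelial cells and stellate cells were listed too, led by Clec4f with a count of 1954, Stab2 with 2171 and Reln with 1823. Fewer markers of other cell types had a row. The listed ones were 1 of 8 T and NK cell genes (Cd3e, 18.6), 1 of 6 B and plasma cell genes (Jchain, 23.14), 2 of 6 neutrophil genes (highest S100a8, 22.97), 2 of 6 cholangiocyte genes (highest Spp1, 151.5) and 4 of 8 erythroid genes (highest Hba-a1, 316). Which of these cell types the counts of the members came from was not tested.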

How the data were processed

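RNA was sequenced from the livers of 3 mice given the LL35 ASO mix and 3 given Luc ASO, and from 7 AML12 libraries not analysed here. Per the study's methods, libraries were rRNA-depleted and made with a strand-marking kit, and the authors aligned reads with STAR (version 2.5.3a per the labels), assigned them to Ensembl genes and normalized counts with DESeq2's RLE size factors. The genome build and the strand setting of the counting are not given in the sources used here. In the table that the authors deposited, each gene has its mean normalized count over the 6 livers, a signal pooled over both groups. Its other value columns hold the authors' own comparison (log2 fold change, its standard error, Wald statistic, p-value and adjusted p-value), were not used, and are not compared with anything here. It has 0 columns of per-sample values, so depth per library, its precision and any error are unknown, and no test was made.

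Members and lists were chosen with earlier results of these data known. Symbols were matched exactly. Levels per kb used the merged exons of GENCODE M21 by Ensembl identifier (11754 of 11779 genes), with the longest GENCODE coding sequence in place of a RefSeq protein length, and the longest transcript, as alternatives. Promoters came from RefSeq (GRCm38.p6), with 46 of 55 members matched and 9 without. For the 7 with more than 1, the first was used. Every member was named, the highest and lowest of each role in full, together with subunits of the listed complexes and the leading marker of each cell type. Other genes of the pathway lists named in the text were chosen after their values were seen. Alternatives were other names, lengths and backgrounds, a minimum count of 50, and members with under 5% shared exonic bases. The steps were run in Python 3.11.15 with numpy 2.4.6, pandas 2.3.3 and matplotlib 3.10.9. The division by length and the positions among all listed genes were tested on simulated data, while the exon overlaps and the motif search were not.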

Additional observations from a re-analysis of the deposited data

How the results depend on the processing

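The number of members listed was 46 with older names in place of 45, the added match being a different gene (Ccn1 for Ccna2), and 32 with a count of at least 50. With older names the share of pathway genes listed was 70.62% in place of 67.5%, but of the 5 added matches 4 were to different genes (Ccn1 for Ccna2, Lrrk1 for Ticrr, Ttbk2 for Ttk and H3c6 for H3c15) and 1 was a rename (H4c4 for Hist1h4d). The median position of the members, 33.31% per kb, was 32.84% among protein-coding genes, 34.49% with a count of at least 50, 41.43% without division by length and, chosen after the data were seen, 32.6% with members sharing under 5% of exonic bases. The class ratio of 4.429 was 9.731 per kb of coding sequence, 8.43 without division by length, 1.55 with a count of at least 50 and, both chosen after the data were seen, 5.248 per kb of the longest transcript and 6.91 with members sharing under 5% of exonic bases, and it stayed above 1 in all of these. Per kb of coding sequence the spread within complexes was 6.456 in the origin recognition complex, 6.886 in MCM2-7, 7.956 in replication factor C, 2.768 in replication protein A, 277.5 in the polymerases and 12.07 in the anaphase-promoting complex. Per kb of the longest transcript, chosen after the data were seen, these spreads were 5.202, 7.699, 8.723, 3.157, 58.57 and 31.42 in the same order. The medians of the 8 roles rose by construction with these shorter lengths, and their order changed. The median was 33.75 for cyclin-dependent kinases and 50.34 for mitosis per kb of exon, and 345.4 and 213.3 per kb of coding sequence. With any promoter of a gene in place of the first, E2F letters were in 2.6%, CHR letters in 20.2% and an NF-Y box in 41.1% of all genes, CHR with an NF-Y box in 4% of the other members became 8%, and E2F letters stayed at 42.9% of the proliferation class and 8% of the other members. No paired analysis was possible because the table holds no value for a single liver, and for the same reason no library could be left out. The lower edge of the table limits what can be said of genes not listed.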

Other observations

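Some replication genes outside the module stood above most of the proliferation class, whose median level was 9.677 per kb. Tk1, the thymidine kinase of S phase cells, had a count of 300.8 and 57.87 per kb. Dna2, a nuclease of lagging strand processing, had 282.1 and 48 per kb. Mcm10, a factor that activates the helicase, had 251.9 and 32.75 per kb. Gins4, a subunit of the active helicase, had 65.01 per kb, while Gins1 had 12.97 and Cdc45, Gins2 and Gins3 were not listed. Of the exonic bases, 1.6% of Tk1 lie in Afmid on the opposite strand, while Mcm10 and Dna2 share 0%. These genes were picked after their values were seen, and no test was possible.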
